A study of Mus musculus with 6 samples.

Results

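Dbp, Tef, Hlf, Nfil3, Bhlhe40, Bhlhe41 and Ciart, a set of 7 transcriptional regulators through which the circadian clock acts on other genes or on itself, were examined in injured mouse liver with and without hepatocyte IRF8. They were taken by gene name from a table of 54532 genes, each name matched 1 row, and all 7 passed the filter on low counts. The names were listed with the difference between the genotypes already known, so that difference is given below for these 7 genes only as a description. The genome-wide test included them, but their p-values are not given and nothing is read from their calls. RNA of the ischemic liver lobe of C57bl/6 mice was sequenced in bulk following warm ischemia for 1 h and reperfusion for 12 h. The WT group, from wild-type mice, consists of 3 libraries, first WT-14, then WT-44 and last WT-77. The IRF8-cKO group, from mice deficient in IRF8 in hepatocytes, also has 3 libraries, first IRF8-cKO-71, then IRF8-cKO-88 and last IRF8-cKO-106. Values by library follow that order throughout. Both groups had ischemia and reperfusion, and no uninjured liver enters these values. Mice were kept on 12 h of light and 12 h of darkness with free access to food and water, and the time of day of surgery and of collection is not given in the sources used here. Nor are the age and sex of the mice, the Cre driver, whether the wild-type mice carried a floxed allele, or whether each library is a separate animal. Any p-value therefore measures the spread between these libraries.

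In the liver clock, CLOCK and BMAL1 (encoded by Arntl) bind E-box sequences and activate genes that include their own repressors, the period and cryptochrome genes and the REV-ERB receptors. DBP, TEF and HLF are PAR bZIP proteins, leucine zipper activators that bind D-box sequences and pass the rhythm on to liver enzymes. NFIL3, also called E4BP4, is a related zipper protein that binds the same D-boxes as a repressor. BHLHE40 (DEC1), BHLHE41 (DEC2) and CIART (CHRONO) repress transcription driven by CLOCK and BMAL1. In unperturbed mouse liver Dbp is among the transcripts with the widest daily swing, while those of Tef and Hlf are shallower.

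The promoter windows of these genes are shown first, because E-box and D-box letters are what several of the encoded factors or their activators recognise. Windows came from RefSeq (GRCm38.p6, the same assembly as mm10) and ran from 250 bases before to 50 after the annotated start. A window was found for 6 of the 7 genes, all except Bhlhe40. The E-box CACGTG, which reads the same on both strands, occurred in the windows of Tef, Bhlhe41 and Ciart, and in 7.15% of all 32851 windows. Ciart held 3 copies, a number reached or passed in 29 windows (0.0883%). The D-box TTANGTAA, searched on both strands together with its form TTATGTAA, occurred in none of the 6 genes and in 2.32% of all windows. The related letters CACGTT, again on both strands, were in none of the 6 and in 4.68% of all windows. A match is only a match of letters, and a window without one says nothing about binding elsewhere in the gene.

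The E-box matches are given with 10 bases on either side, in the direction of transcription, with the E-box in capitals. They stand 116, 58 and 44 bases before the RefSeq start in Ciart, 153 before it in Bhlhe41, and 127 and 138 before the start in each of the windows of Tef, which has more than 1 annotated start.
Ciart, chr3:95882329-95882354, minus strand: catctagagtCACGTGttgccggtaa
Ciart, chr3:95882271-95882296, minus strand: cagggggaggCACGTGcagaaccgca
Ciart, chr3:95882257-95882282, minus strand: tgcagaaccgCACGTGtctgggaggg
Bhlhe41, chr6:145865558-145865583, minus strand: gtacgttccgCACGTGagctgggtgc
Tef, chr15:81802536-81802561, plus strand: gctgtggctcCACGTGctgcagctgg
Tef, chr15:81811266-81811291, plus strand: cctggcccagCACGTGtctacatcgt

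Longer stretches are given for 4 genes whose levels did not overlap between the genotypes, each running up to the first base of the gene as annotated in the count table. Ciart and Bhlhe41 carry the E-boxes in capitals, and Dbp and Hlf have none of the searched letters here.
Ciart, chr3:95882252-95882478, minus strand: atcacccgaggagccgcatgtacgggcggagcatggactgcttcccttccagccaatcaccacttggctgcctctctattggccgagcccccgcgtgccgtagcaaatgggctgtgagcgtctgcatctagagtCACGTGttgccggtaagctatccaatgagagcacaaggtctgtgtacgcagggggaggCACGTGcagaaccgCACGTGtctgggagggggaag
Bhlhe41, chr6:145865559-145865670, minus strand: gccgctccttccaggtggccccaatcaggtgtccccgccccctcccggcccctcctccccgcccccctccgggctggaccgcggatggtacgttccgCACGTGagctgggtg
Dbp, chr7:45704997-45705087, plus strand: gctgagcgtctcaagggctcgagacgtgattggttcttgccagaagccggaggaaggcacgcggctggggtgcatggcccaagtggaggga
Hlf, chr11:90390896-90391167, minus strand: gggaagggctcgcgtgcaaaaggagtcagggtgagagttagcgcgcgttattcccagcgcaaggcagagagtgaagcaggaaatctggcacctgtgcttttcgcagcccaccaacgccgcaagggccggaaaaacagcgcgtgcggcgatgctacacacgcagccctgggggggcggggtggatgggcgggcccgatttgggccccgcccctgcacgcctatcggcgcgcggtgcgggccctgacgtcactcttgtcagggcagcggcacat

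The libraries held 14758237 to 16805830 counted reads. Irf8, the targeted gene, had 9.32, 9.50 and 10.3 CPM (read counts scaled to library size and composition) in the WT libraries and 5.67, 6.72 and 4.17 CPM in the IRF8-cKO libraries (log2 fold change -0.81, SE 0.33, edgeR adjusted p = 0.174). The groups did not overlap, and liver tissue also holds cells in which Irf8 is not deleted. Hepatocyte markers were present in every library, with Alb between 46924 and 88708 CPM. Over all 13134 genes tested, 182 (1.39%) were called by edgeR's quasi-likelihood test (adjusted p under 0.05), of which 59 were higher and 123 (0.937%) lower in IRF8-cKO. Scaling by library totals alone gave 39 higher and 43 lower calls and shifted the median log2 fold change over all genes from 0.03 to 0.25. CPM did not overlap between the genotypes for 28.9% of the genes tested, 14.4% higher and 14.5% lower in IRF8-cKO.

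The PAR bZIP activators differed between the genotypes in opposite directions. Dbp was 11.7-fold lower in IRF8-cKO, Hlf was 3.07-fold higher, and the groups overlapped for Tef. Dbp (ENSMUSG00000059824, chromosome 7, 45705088 to 45710203, plus strand), which is named for its binding to the albumin promoter, was covered by 533, 282 and 301 reads in the WT libraries and by 20, 60 and 36 reads in the IRF8-cKO libraries. In CPM these were 32.7, 24.3 and 20.0 in WT and 1.23, 3.70 and 1.67 in IRF8-cKO. Each IRF8-cKO library thus stood below each WT library, and IRF8-cKO-88 was the highest of its group. The group means were 25.7 ± 6.44 and 2.20 ± 1.32 CPM (SD, n = 3 each), with a log2 fold change of -3.55 (SE 0.45). The last 737 bases of the Dbp locus overlap Sphk2, a sphingosine kinase gene on the opposite strand, and the strand setting of the counting is not given in the sources used here. Sphk2 had 283 to 602 reads in WT and 380 to 548 reads in IRF8-cKO libraries, with overlapping groups. These counts are of the whole gene, and the part of the shared bases in the Dbp reads was not tested.

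Hlf (ENSMUSG00000003949, chromosome 11, 90336536 to 90390895, minus strand), the PAR bZIP gene first found in a leukemia fusion, ran the other way. It stood at 5.88, 8.55 and 14.5 CPM in the WT libraries and at 41.3, 16.2 and 31.3 CPM in the IRF8-cKO libraries. The groups did not overlap, but WT-77 and IRF8-cKO-88 lay close together. The log2 fold change was 1.62 (SE 0.42), from 9.64 ± 4.40 to 29.6 ± 12.6 CPM (SD, n = 3 each). Tef (ENSMUSG00000022389, chromosome 15, 81802421 to 81826863, plus strand), first described in the pituitary, had 37.0, 25.6 and 31.6 CPM in the WT libraries and 31.3, 30.6 and 49.8 CPM in the IRF8-cKO libraries. Its groups overlapped, with IRF8-cKO-106 alone above every WT library, and the log2 fold change was 0.24 (SE 0.29).

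**Figure D1:**
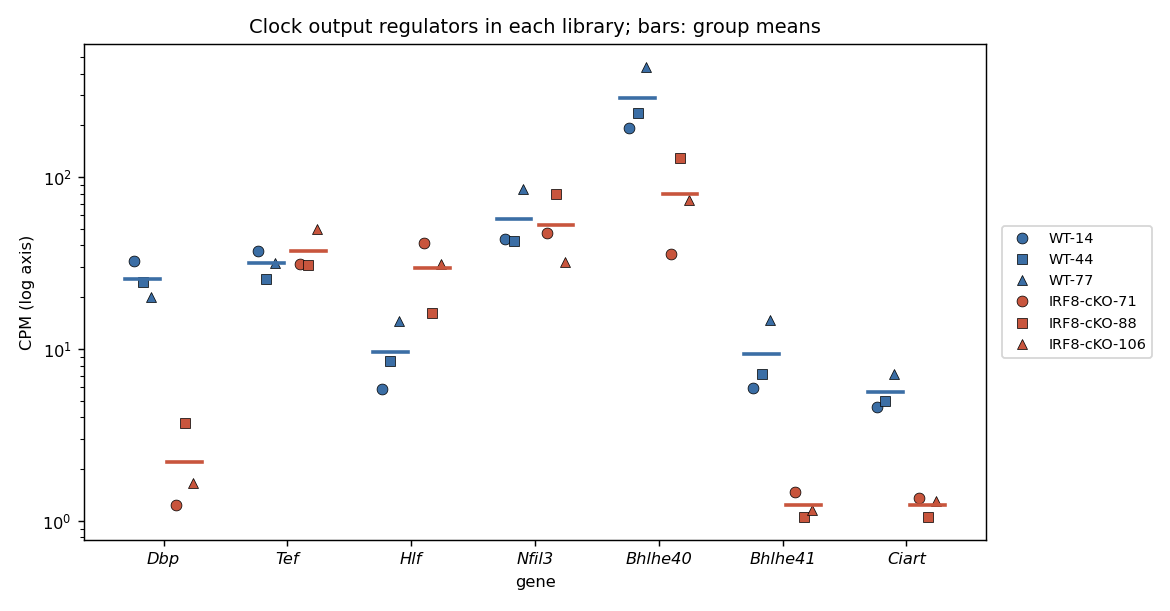
CPM of each of the 7 genes (vertical axis, logarithmic) in each of the 6 libraries, WT in blue and IRF8-cKO in red, with horizontal bars at the group means. Dbp, Bhlhe40, Bhlhe41 and Ciart lie lower and Hlf higher in every IRF8-cKO library than in any WT library, while Tef and Nfil3 overlap.

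Because DBP, TEF and HLF bind the same D-box, their transcripts were also compared on a scale per length, as CPM per kilobase of the deposited gene length. The sum of the 3 was 16.5, 12.7 and 12.9 in the WT libraries and 10.6, 7.55 and 11.6 in the IRF8-cKO libraries, or 14.01 ± 2.16 against 9.90 ± 2.09 (SD, n = 3 each). On this scale the groups did not overlap, but that depended on the scaling between libraries. As TPM, which sets the length-scaled total of each library to the same value, the sum was 37.4, 18.0 and 24.2 in the WT libraries and 23.2, 17.6 and 37.4 in the IRF8-cKO libraries, with means of 26.5 ± 9.89 and 26.1 ± 10.2 (SD, n = 3 each) and overlapping groups. Scaled by library totals, an alternative chosen after seeing the data, the sums per kilobase overlapped as well (13.24 ± 3.99 and 10.96 ± 3.93, SD, n = 3 each). A lower sum in IRF8-cKO was therefore not seen on all scales. Within a library, the shares of the 3 genes do not depend on the scaling between libraries. They do depend on the division by gene length, 2993 bases for Dbp, 7867 for Tef and 6681 for Hlf. Dbp made up 66.1%, 64.2% and 51.9% of the sum in the WT libraries and 3.90%, 16.4% and 4.82% in the IRF8-cKO libraries. Hlf made up 5.34% to 16.8% of it in WT and 32.1% to 58.5% in IRF8-cKO libraries, and Tef 25.7% to 31.2% and 37.6% to 54.7%. Per kilobase, Dbp was thus the most abundant of the 3 in each WT library and the least abundant in each IRF8-cKO library. In reads not divided by length, Tef stood above Dbp in each WT library (604, 297 and 476 against 533, 282 and 301). Dbp was still the lowest of the 3 in each IRF8-cKO library.

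The ratio of Hlf to Dbp reads within a library does not depend on any scaling between libraries. It was 0.180, 0.351 and 0.724 in the WT libraries, where Dbp had more reads in each. In the IRF8-cKO libraries it was 33.5, 4.38 and 18.8, so Hlf had more reads in each. The ratio varied within both groups, most of all in IRF8-cKO, where IRF8-cKO-88 was nearest to WT.

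**Figure D2:**
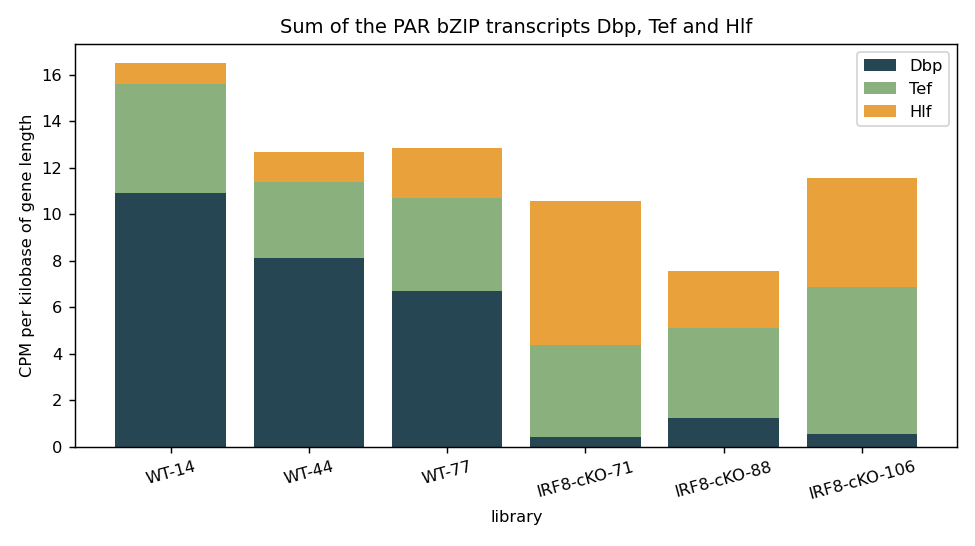
Stacked bars of CPM per kilobase of gene length (vertical axis, from 0) for Dbp, Tef and Hlf in each of the 6 libraries. Dbp takes 51.9% to 66.1% of the bar in WT and 3.90% to 16.4% in IRF8-cKO, and the whole bar is 12.7 to 16.5 in WT and 7.55 to 11.6 in IRF8-cKO on this scale, a separation that TPM does not show.

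Nfil3 (ENSMUSG00000056749, chromosome 13, 52967209 to 52981073, minus strand), the D-box repressor and also a regulator of innate lymphoid cell development, showed no separation of the genotypes. It had 43.6, 42.5 and 84.7 CPM in the WT libraries and 47.0, 79.2 and 31.8 CPM in the IRF8-cKO libraries. WT-77 and IRF8-cKO-88 were high in their groups. The log2 fold change was -0.11 (SE 0.40), and it changed sign when library totals were used for scaling (0.05) and without WT-77 (0.28) or IRF8-cKO-106 (0.16). The sum of the PAR bZIP transcripts divided by Nfil3, both per kilobase, was 0.766, 0.604 and 0.308 in the WT libraries and 0.456, 0.193 and 0.736 in the IRF8-cKO libraries. This ratio of activator to repressor transcripts therefore overlapped between the genotypes.

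The E-box repressors were all lower in IRF8-cKO. Bhlhe40 was 3.63-fold, Bhlhe41 7.53-fold and Ciart 4.51-fold lower, and for each of them every IRF8-cKO library stood below every WT library. Bhlhe40 (ENSMUSG00000030103, chromosome 6, 108660629 to 108666925, plus strand), which also responds to hypoxia and cytokines, had 192, 236 and 439 CPM in the WT libraries and 35.6, 130 and 73.6 CPM in the IRF8-cKO libraries. WT-77 was the highest of the 6 and IRF8-cKO-71 the lowest, with a log2 fold change of -1.86 (SE 0.49). Its spread was wide in both groups, 289 ± 132 in WT and 79.6 ± 47.3 CPM in IRF8-cKO (SD, n = 3 each).

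Bhlhe41 (ENSMUSG00000030256, chromosome 6, 145858243 to 145865558, minus strand), its paralog, was a scarce transcript, with 97, 83 and 222 reads in the WT libraries and 24, 17 and 25 reads in the IRF8-cKO libraries. These were 5.95, 7.17 and 14.7 in WT and 1.48, 1.05 and 1.16 CPM in IRF8-cKO. WT-77 again stood above the other WT libraries, whereas the IRF8-cKO libraries lay close together, and the log2 fold change was -2.91 (SE 0.47). Ciart (ENSMUSG00000038550, chromosome 3, 95878503 to 95882251, minus strand) had 4.60, 5.01 and 7.18 CPM in the WT libraries and 1.36, 1.05 and 1.30 CPM in the IRF8-cKO libraries. It rested on 58 to 108 reads per WT library and 17 to 28 per IRF8-cKO library, and its log2 fold change was -2.17 (SE 0.41). An antisense gene, C920021L13Rik, covers the whole Ciart locus and was given 3 to 11 reads per library, so reads of the pair could not be separated without strand. Of the promoter E-boxes printed above, 3 belong to Ciart and 1 to Bhlhe41, while Tef, with an E-box in each of its windows, overlapped between the genotypes. Dbp, Hlf and Nfil3 had no E-box in their windows, and of these Dbp and Hlf did not overlap.

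The spread within a genotype was in part shared by several of the genes. Of the WT libraries, WT-77 had the highest Hlf, Nfil3, Bhlhe40, Bhlhe41 and Ciart and WT-14 the highest Dbp, with TMM scaling, library totals and TPM alike. The order of the remaining WT libraries changed with the scaling, and so did the library with the lowest Dbp. Of the IRF8-cKO libraries, IRF8-cKO-88 had the highest Dbp, Nfil3 and Bhlhe40 and the lowest Hlf, Bhlhe41 and Ciart on all 3 scales. With 3 libraries a group these orders are a description only.

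Per kilobase, the genes ranked in WT from Bhlhe40 (61.5 ± 28.1) through Nfil3 (28.1 ± 11.9), Dbp (8.58 ± 2.15), Tef (3.995 ± 0.723), Ciart (2.47 ± 0.613) and Hlf (1.44 ± 0.659) to Bhlhe41 (1.38 ± 0.710 CPM per kilobase, SD, n = 3). The ranges of Bhlhe40 and Nfil3, of Ciart and Hlf, and of Hlf and Bhlhe41 overlapped over the WT libraries. In IRF8-cKO the order was Nfil3 (26.0 ± 11.9), Bhlhe40 (16.9 ± 10.05), Tef (4.73 ± 1.38), Hlf (4.43 ± 1.89), Dbp (0.735 ± 0.440), Ciart (0.546 ± 0.0723) and Bhlhe41 (0.183 ± 0.0334 CPM per kilobase, SD, n = 3). There Nfil3 and Bhlhe40, Tef and Hlf, and Dbp and Ciart overlapped. Bhlhe40 ranked above Nfil3 in each WT library. It ranked below Nfil3 in the IRF8-cKO libraries, but in IRF8-cKO-106 the levels were practically tied (15.64 and 15.71 CPM per kilobase). Set among the mean levels per kilobase of all genes tested, Dbp was at the 73.2 percentile in WT and the 20.5 percentile in IRF8-cKO, Bhlhe41 at 32.5 and 4.87, Ciart at 45.1 and 16.3, Hlf at 33.6 and 58.4, and Nfil3 at 89.1 and 89.3.

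Counted by the genome-wide test, 3 of the 7 genes, Dbp, Bhlhe41 and Ciart, were among the genes called (all lower; background 0.937% for lower calls and 1.39% in all), and 5 of 7 had groups that did not overlap (background 28.9%). Since the genes were chosen on this difference, nothing is read from either count. The log2 fold changes of Dbp, Hlf, Bhlhe40, Bhlhe41 and Ciart kept their sign under the 13 alternative scalings, filters, tools and left-out libraries. None moved by more than 1.5 times in fold. These 5 are the genes whose groups did not overlap, so leaving out 1 library could hardly reverse a sign. The kept sign is therefore a description and no separate support. The range was -4.13 to -3.26 for Dbp, 1.31 to 2.03 for Hlf, -2.40 to -1.43 for Bhlhe40, -3.15 to -2.42 for Bhlhe41 and -2.30 to -1.94 for Ciart. Tef ranged from -0.01 to 0.49 and Nfil3 from -0.53 to 0.28. The calls depended on the tool, the filter, the scaling and single libraries. With the DESeq2 Wald test, without a filter or without IRF8-cKO-88, 5 of the 7 were called, Hlf and Bhlhe40 being added. With library totals, with limma-voom, without WT-14 or without IRF8-cKO-71, 2 were called, Ciart being lost. Finally, 0 of the 7 genes were called without WT-44, without WT-77 or without IRF8-cKO-106, when 1, 0 and 20 of all genes were called by edgeR.

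**Figure D3:**
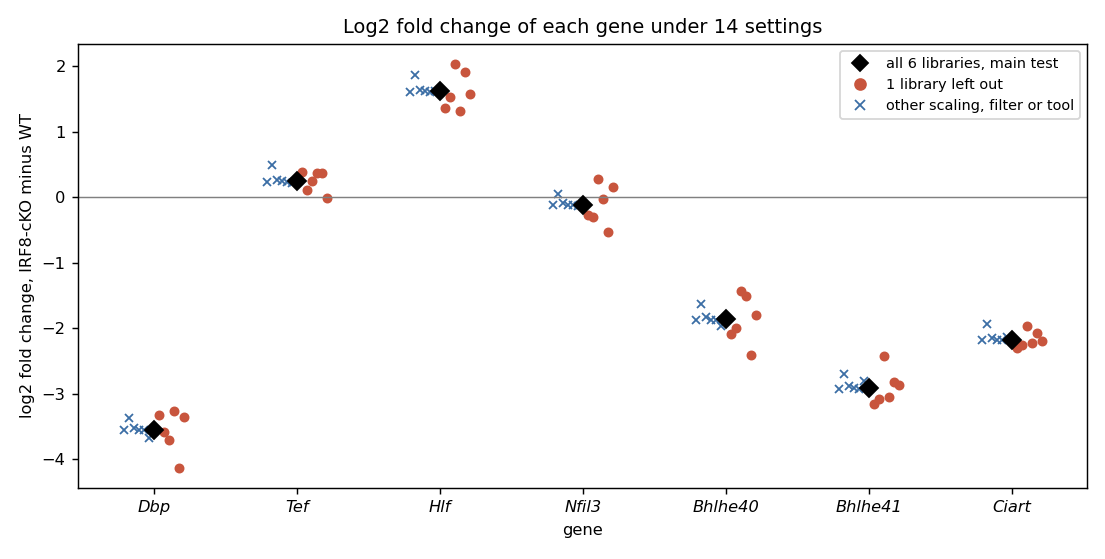
Log2 fold change, IRF8-cKO minus WT (vertical axis), of each of the 7 genes on all 6 libraries (black diamonds), with 1 library left out (red circles) and with another scaling, filter or tool (blue crosses). Dbp stays between -4.13 and -3.26 and Hlf between 1.31 and 2.03, while Tef and Nfil3 lie on both sides of 0.

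Other genes of the clock pathway were read from the same fit, in lists drawn up for this purpose. Of 43 such genes tested, 0 rose and 3 fell at an adjusted p under 0.05, namely Nr1d1, Usp2 and Noct (background 0.937% for lower calls), and 40 did not pass. Their median log2 fold change was -0.26, beside 0.03 for all genes tested, with 27 negative and 16 positive values. The groups did not overlap for 10 of the 43 on the lower side and 5 on the higher side, beside 14.5% and 14.4% of all genes.

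Nr1d1, which encodes the heme-binding repressor REV-ERB alpha, fell from 45.5, 93.1 and 111 CPM in the WT libraries to 13.1, 18.0 and 17.7 CPM in the IRF8-cKO libraries (log2 fold change -2.36, SE 0.36, edgeR adjusted p = 0.0312). Every IRF8-cKO library was below the lowest WT library, WT-14. Nr1d2 and Rora, of the same list, had log2 fold changes of -0.73 and -0.26 that did not pass. NR1D1 and NR1D2 repress and RORA activates Arntl and other genes through shared elements.

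The core activators had positive values and 0 of 3 passed. Clock had 19.2, 19.1 and 22.1 CPM in the WT libraries and 43.0, 41.5 and 54.0 CPM in the IRF8-cKO libraries, without overlap (log2 fold change 1.20, SE 0.25, edgeR adjusted p = 0.0501). Arntl did not overlap either, at 4.14 to 6.68 in WT and 9.22 to 16.8 CPM in IRF8-cKO (log2 fold change 1.22, edgeR adjusted p = 0.0948). Npas2, a paralog of Clock, stood at 0.94. In edgeR, Clock passed with at least 1 CPM in 3 libraries (adjusted p = 0.0493) and without a filter (0.0054). It also passed in edgeR without IRF8-cKO-71 (0.0480) or IRF8-cKO-88 (0.0246), and with the DESeq2 Wald test (adjusted p = 0.00208). Clock did not pass in edgeR with median-of-ratios scaling (adjusted p = 0.0511), with library totals (0.0697) or without robust shrinkage (0.0533). Neither did it pass in limma-voom (adjusted p = 0.0525). Without WT-14 (0.0827), WT-44 (0.206), WT-77 (0.201) or IRF8-cKO-106 (0.118), Clock did not pass in edgeR either. Of the period and cryptochrome genes 0 of 5 passed, with a median of -0.19. Per1, the period gene that responds fastest to hormones and stress, had 51.3, 107 and 126 CPM in the WT libraries and 27.3, 48.1 and 20.2 CPM in the IRF8-cKO libraries (log2 fold change -1.58, SE 0.42, edgeR adjusted p = 0.0794). Its groups did not overlap but came close, at 51.3 CPM in WT-14 and 48.1 CPM in IRF8-cKO-88. Per2, Per3 and Cry1 had log2 fold changes of 0.12, -0.19 and -0.03, all with overlapping groups, and Cry2 one of -0.64.

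Among 8 genes acting on the stability of clock proteins, Usp2, a deubiquitinase gene with a strong liver rhythm, fell 4.19-fold from 7.77 ± 2.07 to 1.84 ± 0.451 CPM (SD, n = 3 each; log2 fold change -2.07, SE 0.40, edgeR adjusted p = 0.0446), and 7 did not pass. Noct, a rhythmic gene encoding the phosphatase nocturnin, was 32.0 ± 5.65 CPM in WT and fell 3.28-fold to 9.75 ± 1.86 CPM (SD, n = 3 each; log2 fold change -1.71, SE 0.28, edgeR adjusted p = 0.0359). It was the only call among 13 other genes with a well-known liver rhythm, whose median was -0.65. Without WT-44, WT-77 or IRF8-cKO-106 the edgeR adjusted p of Nr1d1, Usp2 and Noct rose to between 0.0732 and 0.201, and 0 of the 43 genes passed. Usp2 also did not pass without WT-14 (0.0548), without IRF8-cKO-71 (0.0616) or with limma-voom (0.0514), and with library totals neither Usp2 (0.0816) nor Noct (0.0610) passed.

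Known liver targets of the PAR bZIP factors or NFIL3 showed no common direction. Of 11 tested, 0 passed, 5 had positive and 6 negative log2 fold changes, and the median was -0.23. The groups did not overlap for 2 on the lower side and 2 on the higher side, beside 14.5% and 14.4% of all genes. Those lower were Cyp2a5 (log2 fold change -1.42) and Alb (-0.51). Those higher were Ddc and Cyp2b10 (0.75, with at most 1.17 CPM in a library). Ddc, encoding aromatic amino acid decarboxylase, had the lowest p in the list. It stood at 5.09, 7.94 and 6.91 CPM in the WT libraries and at 36.9, 10.7 and 25.2 CPM in the IRF8-cKO libraries (log2 fold change 1.87, SE 0.44, edgeR adjusted p = 0.0616). Alas1, the rate-limiting enzyme of heme synthesis, and Por, the electron donor of the cytochromes P450, had log2 fold changes of 0.29 and -0.36 with overlapping groups.

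**Figure D4:**
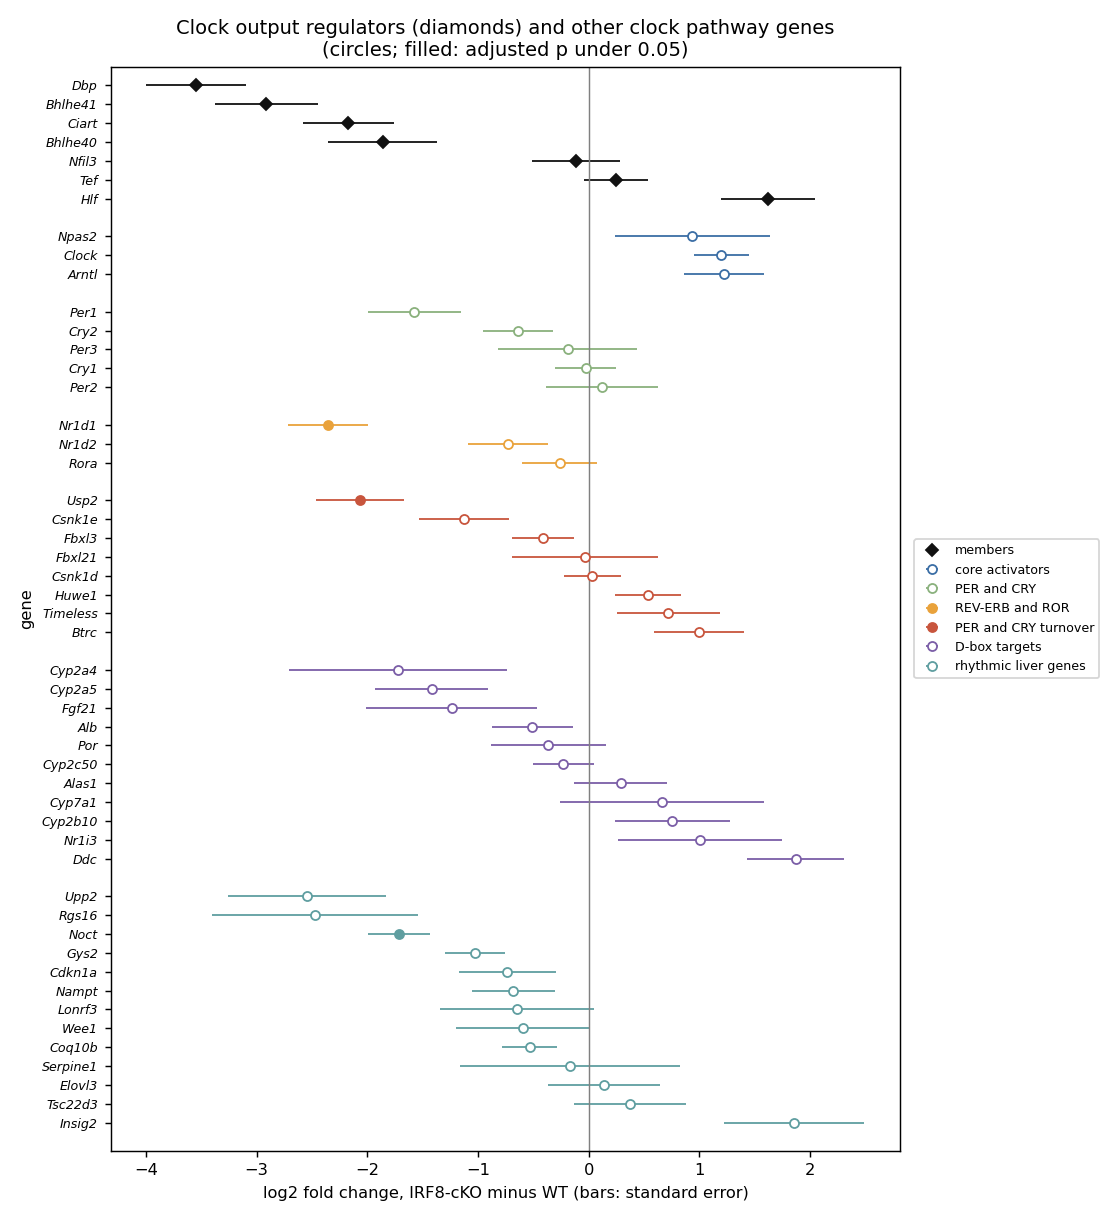
Log2 fold change, IRF8-cKO minus WT (horizontal axis), with its standard error for the 7 clock output regulators and the 43 other clock pathway genes. The 7 regulators are black diamonds, all filled without regard to a test. The other genes are circles, coloured by list and filled where the edgeR adjusted p is under 0.05. Nr1d1, Usp2 and Noct are the filled circles, and the 3 core activators lie above 0.

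Of 7659 protein-coding genes with a mean log2 CPM of at least 3, the 6 whose log2 CPM correlated most closely with Dbp over the 6 libraries were Slpi (Pearson r 0.992), Tprkb (0.988), Fxyd5 (0.987), Inmt (0.986), Aadac (0.985) and Uox (0.979). The points share libraries and scaling, and the coefficient mostly reflects the gap between the genotypes. Slpi, a secreted protease inhibitor gene, had 83.1, 38.9 and 40.1 CPM in the WT libraries and 2.77, 6.97 and 2.50 CPM in the IRF8-cKO libraries (log2 fold change -3.73, SE 0.49, edgeR adjusted p = 0.0243). Inmt, a methyltransferase gene, had a log2 fold change of -2.46 (adjusted p = 0.0243), and the log2 fold changes of the other 4 lay between -1.31 and -0.40 and did not pass. A close correlation with Dbp thus went with differences of very unequal size.

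Other cell types in the tissue differed between the libraries as well. In bulk tissue, fewer cells of a type and less RNA per cell cannot be told apart. Of 8 neutrophil markers tested, 5 were called lower at an adjusted p under 0.05 in edgeR (background 0.937%). All 8 were lower in every IRF8-cKO library than in any WT library, beside 14.5% of all genes tested. The summed level of the 8 was 183 to 224 in WT and 23.3 to 53.1 CPM in IRF8-cKO. The neutrophil markers Ly6g and Camp were below the filter, with at most 26 reads in a library with 0 reads of Ly6g in IRF8-cKO-106 and 0 of Camp in both other IRF8-cKO libraries. Cholangiocyte markers summed to 456 to 937 in WT and 129 to 250 CPM in IRF8-cKO, with 0 of 6 passing and 6 of 6 negative. Spp1 was the largest component of that sum in each library. Hepatocyte markers summed to 77394 to 117488 CPM in WT and 60574 to 75498 CPM in IRF8-cKO, without overlap, with 0 of 8 passing and 2 of 8 positive. Here Alb was the largest component in each library. Kupffer cell markers had positive log2 fold changes in 8 of 8, with a median of 0.97 and 0 passing. Cd5l, Marco and Vsig4 were higher in every IRF8-cKO library than in any WT library, while the summed level, of which C6 was the largest component in each library, overlapped at 172 to 214 CPM and 169 to 454 CPM. Endothelial markers also overlapped in sum (109 to 179 and 115 to 175 CPM, 0 of 8 passing). Of 9 T and NK cell markers only Cd8a passed the filter, at 0 to 0.691 in WT and 0.510 to 1.17 CPM in IRF8-cKO. The part of these cell types in the levels of the clock output regulators was not tested.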

How the data were processed

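The deposited table holds raw read counts per gene, made by the authors with HISAT2 2.0.5 and featureCounts 1.5.0-p3 on mm10, per the submitters' processing notes. How strand was handled, and with which annotation release, is not given in the sources used here. Library totals (14758237 to 16805830) were scaled by TMM factors of 0.786 to 1.32, and filterByExpr (minimum count 10, minimum total 15) kept 13134 genes. Groups were taken from the sample titles. The test was the two-sided quasi-likelihood test of edgeR 4.0.16 (R 4.3.3) with robust shrinkage, with Benjamini-Hochberg adjustment over all genes tested and a threshold of 0.05. The SE was derived from the fold change and its F statistic. The scripts were tested on simulated data, in which 200 of 13134 genes were changed. There edgeR found 3% of the 2-fold and 62% of the 4-fold changes, and made 74 calls, 9 of them on unchanged genes. With DESeq2 these shares were 12% and 82%, and 31 out of 125 calls fell on unchanged genes. In the real data 3169 genes had an unadjusted p under 0.05 in edgeR, far more than were changed in the simulation. The recovered shares depend on how many genes change, so they need not hold here. A gene that did not pass in edgeR may still differ, above all where the difference is near 2-fold. Libraries within a group were not copies of each other, since the lowest chi-square of their counts was 72.4 per degree of freedom. Levels per length are CPM divided by the deposited gene length in kilobases, and likeness used log2 CPM with a prior count of 2. Promoter sequences are from RefSeq (GRCm38.p6).

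The 7 genes and the lists were chosen with earlier results of these data known, and 1 gene of the pathway lists is not reported here. Named besides the 7 genes and Irf8 are pathway genes with adjusted p under 0.05 and the gene of lowest p in each other list. A few further list members are named with their values after these were seen. Alternatives were scaling by median of ratios or by totals, dropping the filter, at least 1 CPM in 3 libraries, DESeq2 1.42.0, limma-voom (limma 3.58.1), no robust shrinkage, TPM for levels, and each library left out in turn.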

Additional observations from a re-analysis of the deposited data

How the results depend on the processing

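Of all genes tested, 182 were called. The count was 82 with library totals, 1723 without a low-count filter, 1423 with DESeq2 and 111 with limma-voom. Of the 43 pathway genes, 3 were called on all 6 libraries, 1 with library totals, 12 without a filter and 11 with DESeq2. Without a filter 4 of these calls were higher in IRF8-cKO, and with DESeq2 also 4. With each library left out in turn the counts ranged from 0 to 1205 for all genes and from 0 to 10 for the pathway genes. The 0 for all genes, without WT-77, came with 1988 genes at an unadjusted p under 0.05 in edgeR, and the 1205 came without IRF8-cKO-88. The cause was not tested. Nr1d1, Usp2, Noct, Clock, Per1 and Ddc kept their direction under all these alternatives. Their groups did not overlap on all 6 libraries, so leaving out 1 library could hardly reverse a direction. Summed per kilobase, Dbp, Tef and Hlf stood at 0.706 of WT in IRF8-cKO with TMM scaling, 0.828 with library totals and 0.983 as TPM. With TPM, the groups of Dbp, Hlf, Bhlhe40, Bhlhe41 and Ciart still did not overlap. Bhlhe41 and Ciart had as few as 17 reads in a library, which limits their precision. No paired analysis was possible because no number in the titles occurs in both groups.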

Other observations

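The D-box letters TTANGTAA were found in the RefSeq promoter windows of 4 of the 34 pathway genes that had a window, namely Alb, Per3, Timeless and Coq10b. Of all windows 2.32% held a match, but that share is by window and some pathway genes have more than 1. Alb was listed as a known target of D-box factors, so nothing is read from the count. Per3 and Alb each held more than 1 copy, and those of Per3 are shown with 10 bases on either side and the D-box in capitals.
Per3, chr4:151044853-151044880, minus strand: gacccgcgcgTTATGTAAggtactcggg
Per3, chr4:151044806-151044833, minus strand: ccgcccgcggTTATGTAAcccccgccgt
Per3 had 1.10, 1.38 and 1.79 CPM in the WT libraries and 2.22, 0.370 and 1.16 CPM in the IRF8-cKO libraries, with overlapping groups (log2 fold change -0.19). Log2 fold changes were -0.51 for Alb, 0.72 for Timeless and -0.53 for Coq10b, and 0 of these 4 genes passed in edgeR. Alb and Coq10b were lower in every IRF8-cKO library than in any WT library, as were 14.5% of all genes tested, while Timeless overlapped. These genes were named after their promoter matches were seen.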
